A study of Homo sapiens with 12 samples.

Results

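The 10 genes described here encode the chromosomal passenger complex and the machinery of cytokinesis: AURKB, INCENP, BIRC5, CDCA8, ECT2, RACGAP1, PRC1, ANLN, CEP55 and CIT. They are 10 of the 19460 genes with RNA values in T-47D, an established line of oestrogen receptor-positive luminal breast cancer cells labelled wild type. They were chosen by gene name for their known function and for their lower RNA after palbociclib in these same libraries, so their RNA change is given as a description, without a test. The cells had received either the carrier DMSO or 1 µM palbociclib for 24 h, with 3 RNA-seq libraries in each group. Accessibility of chromatin was measured by ATAC-seq in another 3 DMSO and 3 palbociclib libraries. All 10 genes had a value in every RNA library, and no member was lost to the filter on low values. Splicing within each gene and accessibility at its promoter were not used to choose the genes, and these were tested.

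Palbociclib inhibits the kinases CDK4 and CDK6, which allow cells to leave G1 by releasing E2F factors from the retinoblastoma protein. The chromosomal passenger complex consists of the kinase Aurora B (AURKB), the scaffold INCENP, and survivin (BIRC5) and borealin (CDCA8), which bring it to centromeres. It corrects faulty attachments of chromosomes to the spindle and moves to the central spindle at anaphase. There PRC1 bundles antiparallel microtubules, and centralspindlin, which contains RACGAP1, recruits ECT2 to activate RHOA at the cell equator. Anillin (ANLN) and citron kinase (CIT) organise the contractile ring and midbody, and CEP55 brings the membrane-cutting ESCRT proteins to the midbody for abscission. Many such genes are transcribed in G2 and M phase and repressed in quiescent cells through a promoter element called the CHR, the cell cycle genes homology region, often together with CCAAT boxes.

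RNA values are FPKM, fragments scaled by transcript length and library size as the authors computed them, so levels of different genes can be compared per length. All 10 luminal markers looked at, such as ESR1, GATA3 and KRT8, were present. Their summed level ranged from 5600 to 6130 FPKM in DMSO and from 7520 to 8300 FPKM in palbociclib. Of 4 fibroblast markers with a value, only COL1A1 reached a mean of 0.5 FPKM, and the list summed to between 23.9 and 27.1 FPKM over all libraries. The 1 basal marker with a value, TP63, did not reach it, and the 4 endothelial markers had no value here. The part of any of these cells in the results was not tested. The ATAC libraries held 12830062 to 18250496 counts in peaks. Nothing in the labels says that the RNA libraries came from separate cultures, so their p-values may measure technical spread.

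Promoter sequence was in the RefSeq table for 8 of the 10 genes, as windows that run from before a start to 50 bases after it on GRCh38.p14. The CHR was searched as TTTGAA or TTCGAA on both strands. It was found in 7 of the 8 genes, in 8 of their 10 windows, against 16.4% of 35116 windows of all genes. The match nearest the outermost listed start of each gene is shown, so that its letters and surroundings can be compared between genes. Each is printed 5′ to 3′ on the strand of the gene with all CHR letters in capitals, where TTCAAA is TTTGAA on the reverse strand.
CDCA8, chr1:37692481-37692510, plus strand: gtgactgtggagTTTGAAttgggtggcggt
INCENP, chr11:62123989-62124018, plus strand: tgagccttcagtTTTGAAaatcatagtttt
PRC1, chr15:90994538-90994567, minus strand: cccgtggcgcggTTTGAAattttgcggggc
ANLN, chr7:36389830-36389859, plus strand: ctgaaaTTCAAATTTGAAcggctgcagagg
CEP55, chr10:93496597-93496626, plus strand: gcagccgcgggaTTCAAActcccggaagcg
CIT, chr12:119877293-119877322, minus strand: ccgttcctcgggTTCAAAcgcggcggcggg
ECT2, chr3:172750748-172750775, plus strand: agcagcttagttTTTGAAtcggttgtgg

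The match began 10 bases before the start in INCENP, 20 in PRC1 and ANLN, 23 in CDCA8 and 3 in CEP55, and 10 bases after the start in CIT and 34 in ECT2. These are near the start by choice: counted in bases from the start, further matches began at -26 in ANLN, directly before the one described, at -115 in ECT2, at -116 in CEP55 and at -208 in CIT. The other ECT2 window, around the start at position 172751002, had its nearest match at -182 from that start. Only AURKB, whose 2 listed starts lie 350 and 326 bases inside the outer end of the gene, had no match. The CCAAT box, searched as CCAAT on both strands, was found in 7 of the 8 genes, all but ANLN, against 34.6% of all windows. Its matches can overlap those of the CHR by shared letters, as in CDCA8 above, where ATTGG, the reverse strand of CCAAT, shares the last A of the CHR. An E2F-like word (TTTGGCGC, TTTCCCGC, TTTGCCGC or TTTCGCGC, both strands) was found in 0 of the 8 genes and in 3.31% of all windows. The word GGCGG, common in GC-rich promoters, was found in all 8 and in 59% of all windows. These matches describe letters in a window and say nothing of what binds there.

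RNA of all 4 passenger genes was lower with palbociclib, but by unequal amounts. AURKB, the catalytic subunit (chr17:8204731-8210575, minus strand), had levels of 42.7, 45.2 and 41.3 FPKM in DMSO libraries 1 to 3 and of 2.18, 1.87 and 2.05 FPKM in palbociclib libraries 1 to 3. Its mean went from 43.07 ± 1.94 to 2.03 ± 0.156 FPKM (SD, n = 3), which left 4.72% of the DMSO level. On the log2(FPKM + 1) scale that is a change of -3.86 (SE 0.058), and only 5 of 15869 genes tested had a lower change. BIRC5, an inhibitor-of-apoptosis family protein (chr17:78214253-78225635, plus strand), had 60.8, 62.6 and 61.6 FPKM in DMSO and 4.92, 4.71 and 5.03 FPKM in palbociclib, so 7.92% remained (log2 -3.41, SE 0.04). CDCA8 (chr1:37692516-37709719, plus strand) had 28.8, 28.7 and 28.8 FPKM in DMSO and 3.31, 3.55 and 3.55 FPKM in palbociclib, and 12.1% remained (log2 -2.74, SE 0.046). INCENP, which holds the complex together (chr11:62124011-62153169, plus strand), had 29.9, 31.9 and 27.9 FPKM in DMSO and 6.26, 5.89 and 5.81 FPKM in palbociclib. The scaffold thus kept 20% of its level (log2 -2.14, SE 0.058), the largest share of the 4 subunits.

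In each of these genes every palbociclib library lay below every DMSO library. The groups were separated in this way for all 10 genes, where 28.2% of all genes tested had lower, non-overlapping groups and 22.9% were called lower by limma at an adjusted p under 0.05. These shares stand only as the background, because the same contrast chose the genes. A smaller number of dividing cells and less RNA per cell cannot be told apart in RNA from whole cultures.

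Because the RNA of the subunits changed unequally, the proportions of these RNAs within a library changed. The AURKB level was 1.43, 1.42 and 1.48 times that of INCENP in the DMSO libraries and 0.349, 0.318 and 0.353 times in the palbociclib libraries. BIRC5 went from 2.07 ± 0.126 times the INCENP level to 0.817 ± 0.0423 times (SD, n = 3), and CDCA8 from 0.965 ± 0.0663 to 0.581 ± 0.0462 times. AURKB RNA was thus more abundant than INCENP RNA in DMSO and less abundant in palbociclib. The ranges of each of these ratios did not overlap between groups. Protein was not measured, so the make-up of the complex is not known from these ratios. The BIRC5 level was 2.14 ± 0.0331 times that of CDCA8, its binding partner in the complex, in DMSO and 1.41 ± 0.0828 times in palbociclib.

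The central spindle genes were the most abundant members, and ECT2 kept the most RNA of all 10. ECT2, the guanine nucleotide exchange factor for RHOA (chr3:172750726-172829265, plus strand), had 132.7, 128.5 and 137.2 FPKM in DMSO and 50.6, 51.4 and 51.9 FPKM in palbociclib. Its remaining share was 38.6% (log2 -1.35, SE 0.034), and 320 of the genes tested had a lower log2 change. RACGAP1, a subunit of centralspindlin with GTPase-activating activity (chr12:49989162-50033440, minus strand), had 100.5, 102.9 and 104.3 FPKM in DMSO and 18.3, 18.3 and 19 FPKM in palbociclib. Of its DMSO level 18.1% remained (log2 -2.41, SE 0.034). PRC1 (chr15:90966040-90994535, minus strand) had 112.1, 113.9 and 113.5 FPKM in DMSO and 11.5, 11.7 and 12.6 FPKM in palbociclib, so 10.5% remained (log2 -3.14, SE 0.041). The ECT2 level was 1.29 ± 0.0399 times that of RACGAP1 in DMSO and 2.77 ± 0.0359 times in palbociclib. That of PRC1 moved the other way, from 1.1 ± 0.0142 to 0.644 ± 0.0183 times the RACGAP1 level.

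Genes of the contractile ring and midbody kept between 7.56% and 11.6%. ANLN, a scaffold that links actin, myosin and septins (chr7:36389862-36453791, plus strand), had 93.9, 92.3 and 97.6 FPKM in DMSO and 10.7, 10.3 and 11.9 FPKM in palbociclib (log2 -3.0, SE 0.053). CEP55 (chr10:93496612-93529092, plus strand) had 46.1, 46.7 and 45.8 FPKM in DMSO and 3.34, 3.59 and 3.55 FPKM in palbociclib (log2 -3.39, SE 0.043). CIT (chr12:119685791-119877320, minus strand) had 21.9, 22.9 and 23.3 FPKM in DMSO and 2.62, 2.16 and 2.24 FPKM in palbociclib (log2 -2.83, SE 0.065). ANLN and CIT kept their proportion within the spread, at 4.17 ± 0.133 in DMSO and 4.72 ± 0.628 in palbociclib (SD, n = 3), with overlapping ranges.

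**Figure D1:**
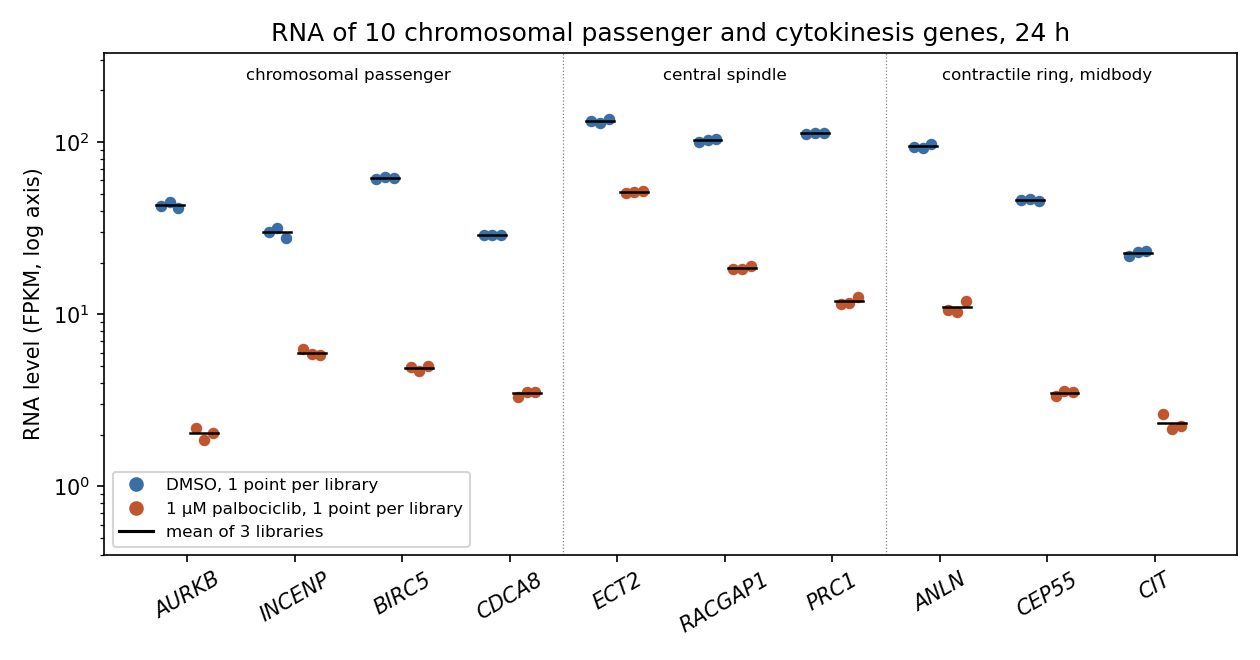
RNA level of each of the 10 genes in FPKM on a log axis, with 1 point per library and a line at the mean of 3 libraries, DMSO in blue and 1 µM palbociclib in orange. Every orange point lies below every blue point of the same gene; ECT2 has the smallest gap (132.8 to 51.31 FPKM) and AURKB the largest (43.07 to 2.03 FPKM).

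Across the members the median log2 change was -2.91, from -3.86 to -1.35, where the median over all genes tested was 0.002 and 3.07% of all genes had a change of -1 or lower. The authors' deposited table of DESeq2 results put the same genes between -4.41 for AURKB and -1.37 for ECT2, and gave -3.66 for BIRC5, -3.05 for CDCA8 and -2.32 for INCENP. The order of levels in DMSO ran ECT2, PRC1, RACGAP1, ANLN, BIRC5, CEP55, AURKB, INCENP, CDCA8 and CIT, and of these neighbours only INCENP and CDCA8 had overlapping ranges. In palbociclib it ran ECT2, RACGAP1, PRC1, ANLN, INCENP, BIRC5, CEP55, CDCA8, CIT and AURKB. There PRC1 and ANLN, CEP55 and CDCA8, and CIT and AURKB overlapped. AURKB thus went from the seventh place to the last and INCENP from the eighth to the fifth.

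The genes whose pattern over the 6 libraries was most like the median of the members were KIF11, a spindle motor, with a root mean square difference of 0.033 log2, BUB1B, a checkpoint kinase (0.04), MELK (0.044), TK1, thymidine kinase (0.048), and E2F1 (0.052). Their log2 changes lay between -2.95 and -2.88. KIF11, for example, had 51, 48.7 and 51.2 FPKM in DMSO and 5.77, 5.4 and 5.79 FPKM in palbociclib.

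Partner genes of the same pathways, in 4 lists by known function, were then tested with limma on log2(FPKM + 1). P-values were adjusted over all 15869 genes, of which 22.9% were called lower and 20.9% higher. The lists were drawn up with earlier results of these data known, so their counts and p-values are not independent support. The central spindle list was mostly lower, and the contractile ring and ESCRT lists had medians near 0. Why the lists differed was not tested. Of 14 central spindle and RHOA genes, 11 fell and 0 rose, and 9 fell by at least 1 log2, with a list median of -2.44. KIF20A, the motor that carries the passenger complex to the central spindle, fell from 40.9 ± 1.18 to 2.59 ± 0.0369 FPKM (limma log2 change -3.54, adjusted p 4.11e-10). PLK1, the kinase that primes ECT2 recruitment, fell from 73.6 ± 3.24 to 6.05 ± 0.426 FPKM (limma log2 change -3.4, adjusted p 9.31e-10). SHCBP1, a binding partner of RACGAP1, fell from 16.5 ± 1.78 to 1.21 ± 0.154 FPKM (limma log2 change -2.99, adjusted p 3.73e-08). The 3 genes not called were RHOA itself (167 ± 3.81 and 160.8 ± 0.734 FPKM, limma adjusted p 0.168), ROCK1 (limma adjusted p 0.886) and ARHGEF2 (limma adjusted p 0.238).

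Of 14 regulators of the passenger complex 13 were tested, 8 fell and 3 rose, with a median of -0.46. BUB1, whose histone mark brings the complex to centromeres, fell from 23.9 ± 0.192 to 2.02 ± 0.107 FPKM (limma log2 change -3.04, adjusted p 1.06e-09). SGO1, the centromere guardian of cohesion, fell by 2.83 on the log2 scale, and the checkpoint kinase TTK fell by 2.54. The 3 that rose were KLHL13 (log2 0.19) and KLHL9 (0.17), substrate adaptors of the CUL3 ligase that acts on Aurora B, and the deubiquitinase USP9X (0.12). CUL3 itself (log2 -0.09, limma adjusted p 0.0609) and its adaptor KLHL21 (log2 -0.01, limma adjusted p 0.886) were not called. KLHL13, KLHL9 and USP9X each lost the call in at least 3 of 13 alternatives (highest limma adjusted p 0.087, 0.0664 and 0.108).

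Of 16 genes of the contractile ring, 6 fell and 5 rose, none by 1 log2, with a median of 0.07. MYL9, a regulatory light chain of non-muscle myosin, rose from 54.6 ± 0.9 to 79.5 ± 1.61 FPKM (limma log2 change 0.54, adjusted p 3.25e-06), and MYL12A and MYL6 rose by 0.3 and 0.24 log2. The log2 change was -0.38 for SEPTIN11, -0.29 for MYH10 and -0.26 for SEPTIN7, which all fell. With each library centred on its median, the median of all genes moved by 0.11 log2, and 2 of the 16 fell and 9 rose. Higher calls then made up 81.8% of the list's calls against 45.5% before, and 70.5% of those over all genes against 47.7%. MYH10 was no longer called (limma adjusted p 0.0917, highest of 13 alternatives). Of 21 ESCRT and abscission genes, the proteins that CEP55 recruits among them, 1 fell, 5 rose and 15 were not called. ULK3, an abscission checkpoint kinase, rose from 42.1 ± 1.05 to 58.8 ± 2.05 FPKM (limma log2 change 0.47, adjusted p 2.25e-05), and CHMP2A and CHMP1B rose by 0.18 and 0.17. CHMP1B and the only lower gene, VTA1 (log2 -0.12), were each called in 8 of 13 alternatives. Centring each library on its median made 9 of the 21 higher and 0 lower, where it called 5729 of all 15869 genes higher and 2401 lower.

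**Figure D2:**
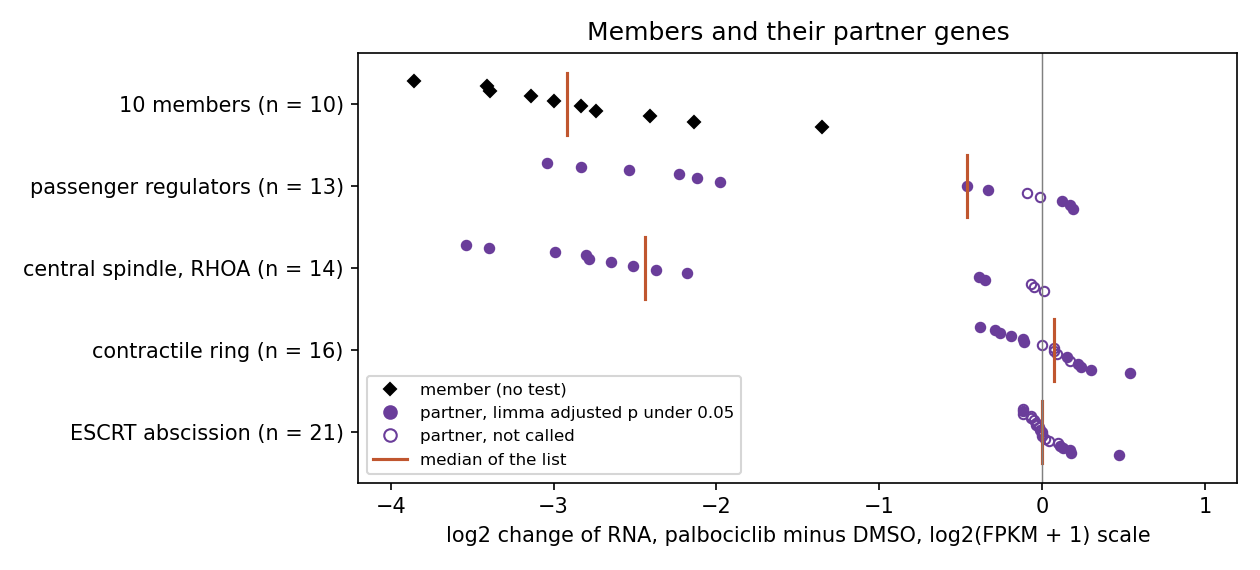
Change of RNA in log2(FPKM + 1), palbociclib minus DMSO, for the 10 members (diamonds, no test) and the partner genes of 4 lists (filled circles with a limma adjusted p under 0.05, open circles otherwise), with an orange line at each list's median. The central spindle list (median -2.44) runs from -3.54 to 0.01, while contractile ring genes (median 0.07) and ESCRT genes stay within 1 log2 of 0.

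Isoforms were compared through the inclusion level, the length-scaled share of reads from the longer form or the form with the exon. For exons that exclude each other it is the share of 1 exon of the pair. The level does not depend on how much RNA a gene has left. The splicing tables held 179 events in the 10 genes, and 58 events in 9 genes had enough reads in both forms to be tested; none of the 4 events of CEP55 did. At an adjusted p under 0.05, edgeR called 2 of the 58, where it called 0.35% of all events. Both were events of the skipped exon type with a lower inclusion level. The level of the ECT2 event mixes reads from more than 1 first exon, as described below. Among events of the skipped exon type alone, 2 of 28 were called, against 0.312%, and among retained introns 0 of 8, against 1.4%. Before adjustment, 9 of the 58 events (15.5%) had a p under 0.05, against 8.53% of all events. In 11 (19%) the libraries of the groups were fully separated, against 13.7% of all events. The median size of the change in inclusion level was 0.0278 in the members and 0.0225 over all events. Events of 1 gene share reads, so they are not independent of each other. The filter took the mean reads over all 6 libraries, so events of the members could pass mainly on their DMSO reads. Their palbociclib levels then rest on fewer reads, unlike those of genes whose RNA did not fall. The shares and sizes above were not corrected for this.

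In INCENP 1 small exon had a lower inclusion level in palbociclib, with a call at the threshold. The exon has 12 bases, a multiple of 3, at chr11:62141500-62141511 of GRCh38, between the exons chr11:62140913-62141044 and chr11:62144982-62145091. Its inclusion level was 0.629, 0.626 and 0.646 in DMSO libraries 1 to 3 and 0.446, 0.321 and 0.321 in palbociclib libraries 1 to 3. All palbociclib libraries were below all DMSO libraries, and the change of -0.271 had an edgeR adjusted p of 0.0498. Reads that joined the exon numbered 179, 210 and 139 in DMSO and 28, 26 and 18 in palbociclib, and reads that skipped it 94, 112 and 68 against 31, 49 and 34. Counted on the junctions of the upstream exon alone, the exon was joined in 64.7 ± 1.26% of reads in DMSO and in 36.1 ± 8.92% in palbociclib (SD, n = 3), so the form without the exon went from the minor to the major one. The authors' deposited table gave this event an rMATS false discovery rate of 4.68e-05. The edgeR call lies at the threshold: it held in 3 of 10 alternatives, with adjusted p between 0.0224 and 0.763, and was lost without DMSO replicates 1, 2 or 3 (0.151, 0.212 and 0.168) and without palbociclib replicates 2 or 3 (0.255 and 0.136).

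The event called in ECT2 was a skipped exon of 323 bases at chr3:172752150-172752472, near the 5′ end of the gene, between a first exon at chr3:172750959-172751116 and the exon that begins at position 172754509. Its inclusion level was 0.619, 0.82 and 0.684 in DMSO and 0.305, 0.394 and 0.413 in palbociclib, without overlap (change -0.337, edgeR adjusted p 0.0045). In the authors' deposited table its rMATS false discovery rate was 7.36e-07. The edgeR call held in 8 of 10 alternatives (adjusted p 0.000108 to 0.763). It was lost without DMSO replicate 2 (0.0821) and without a filter on the minor form (0.763).

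The reads behind the ECT2 event, looked at after its value was seen, came from more than 1 first exon. Junctions from this first exon to the 323-base exon numbered 2, 6 and 1 in DMSO and 0, 2 and 0 in palbociclib. Nearly all of its inclusion reads, 227 and 717 in DMSO, were on the junction to the next exon or in the exon body. These are counted for the neighbouring first exon, chr3:172750685-172750857, as well, which had 115, 178 and 128 junction reads to the same exon in DMSO and 45, 41 and 41 in palbociclib. Of the junctions of that more upstream first exon, 14.1 ± 1.14% joined the 323-base exon in DMSO and 10.3 ± 1.73% in palbociclib (SD, n = 3). The inclusion level of the called event therefore compares reads of the exon from both first exons with direct junctions of the downstream one.

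Direct junctions to the exon at position 172754509 separated the 2 first exons. The upstream first exon had 785, 1034 and 737 of them in DMSO and 321, 388 and 410 in palbociclib. As CPM, library-scaled values over all skipped-exon event reads, these were 13.8 ± 0.271 and 5.31 ± 0.45 (SD, n = 3), without overlap. The downstream first exon had 39, 19 and 34 direct junction reads in DMSO and 53, 48 and 39 in palbociclib, or 0.526 ± 0.237 and 0.669 ± 0.128 CPM, with overlapping ranges. Its share of the direct junctions was 4.73%, 1.8% and 4.41% in DMSO and 14.2%, 11% and 8.69% in palbociclib, higher in every palbociclib library. Both first exons hold a listed RefSeq start, at positions 172750726 and 172751002. This comparison was chosen after the values were seen and was not tested.

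**Figure D3:**
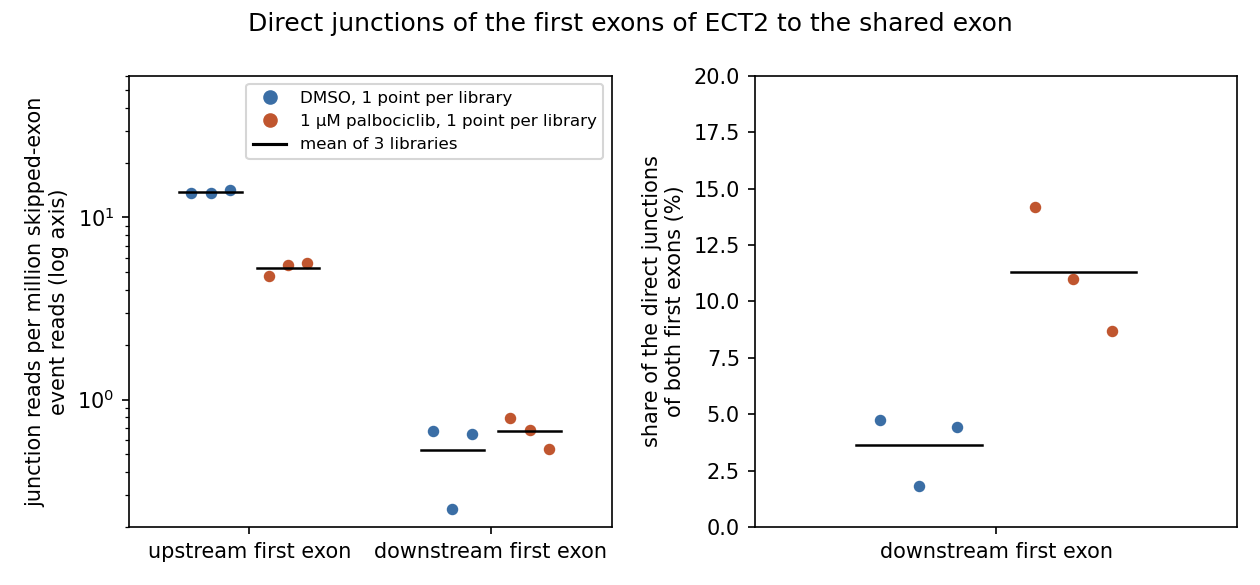
Direct junction reads of the first exons of ECT2 to the shared exon, in CPM of skipped-exon event reads on a log axis (left), and the share from the downstream first exon in percent (right), with 1 point per library and a line at the mean of 3. Junctions of the upstream first exon are lower in palbociclib (13.8 to 5.31 CPM), those of the downstream one overlap between groups, and its share goes from 3.65% to 11.3%.

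Among the events tested, which leave out many with more reads but a rarer form under 5% of them, the most-read event of each of ECT2, ANLN, CDCA8, PRC1, CIT and RACGAP1 overlapped between the groups and was not called. That of ECT2, a 93-base exon (chr3:172755483-172755575), had an inclusion level of 0.212 ± 0.0239 in DMSO and 0.225 ± 0.0277 in palbociclib (SD, n = 3; edgeR adjusted p 0.91). The ANLN exon chr7:36417080-36417190 stayed at 0.778 ± 0.0293 and 0.766 ± 0.0299 (edgeR adjusted p 0.94), with between 1930 and 2647 inclusion reads per DMSO library and between 267 and 307 per palbociclib library. A pair of exons of CDCA8 that exclude each other had levels of 0.7 ± 0.0103 and 0.691 ± 0.0491 (edgeR adjusted p 0.988). An intron of PRC1, retained in a minority of transcripts, had 0.075 ± 0.00774 and 0.073 ± 0.0242 (edgeR adjusted p 0.988). A pair of exclusive exons of CIT had 0.575 ± 0.0356 and 0.518 ± 0.0778 (edgeR adjusted p 0.88), and a 3-base difference at a 3′ splice site of RACGAP1 0.066 ± 0.00695 and 0.061 ± 0.0279 (edgeR adjusted p 0.944).

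Survivin has known splice variants, and 9 events of BIRC5 were tested, none called. The 69-base exon chr17:78215966-78216034 had inclusion levels of 0.115, 0.126 and 0.096 in DMSO and 0.14, 0.137 and 0.173 in palbociclib, apart by little and not called (edgeR adjusted p 0.63). The 165-base exon chr17:78222828-78222992 had 0.022, 0.022 and 0.022 in DMSO and 0.01, 0.013 and 0.023 in palbociclib (edgeR adjusted p 0.624). A longer form of the exon that ends at position 78216781, which reads on from the 69-base exon, went from 0.043 ± 0.000131 to 0.071 ± 0.00982 (edgeR adjusted p 0.237), where the authors' deposited table has an rMATS false discovery rate of 0.0462. A form of the 69-base exon longer by 32 bases had 8, 10 and 10 reads in DMSO and 0, 0 and 0 in palbociclib (edgeR adjusted p 0.481, rMATS false discovery rate 0.0121 in the authors' deposited table). The groups did not overlap, and the edgeR p before adjustment was 0.0226. The palbociclib libraries held 42 reads of the shorter form in all, and a count of 0 then allows a share of up to 7.14% of reads, just below the 7.82% in DMSO.

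Low counts limited the rest. In AURKB, whose palbociclib libraries held the least RNA, the tested event with the most reads was a 3′ splice site 46 bases apart. It had an inclusion level of 0.077 ± 0.0168 in DMSO and 0.037 ± 0.0339 in palbociclib (edgeR adjusted p 0.742), resting on 0, 1 and 3 inclusion reads in palbociclib. The 74-base exon chr12:50018516-50018589 near the 5′ end of RACGAP1 had levels of 0.219, 0.146 and 0.189 in DMSO and 0.329, 0.267 and 0.453 in palbociclib, apart but not called (edgeR adjusted p 0.484), from 6, 7 and 13 inclusion reads in palbociclib. A retained intron of CIT (0.017 to 0.005, edgeR adjusted p 0.398) and a 5′ splice site of BIRC5 (0.043 to 0.141, edgeR adjusted p 0.623) rested on at most 3 inclusion reads per palbociclib library.

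**Figure D4:**
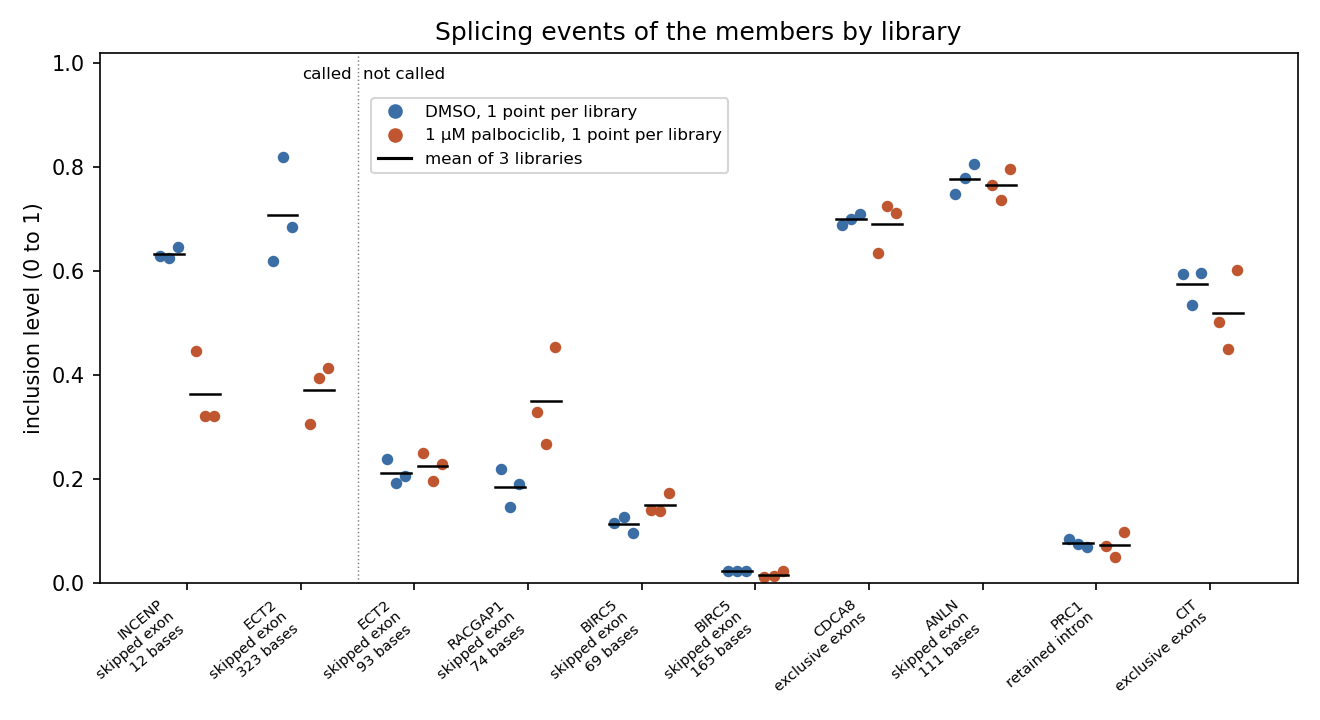
Inclusion level, from 0 to 1, of 10 splicing events of the members with 1 point per library and a line at the mean of 3, DMSO in blue and palbociclib in orange. The exons of INCENP (0.634 to 0.363) and ECT2 (0.708 to 0.371) at the left separate the groups and were called. The ECT2 level compares reads of the exon from both first exons with direct junctions of the downstream one. The other 8 were not called.

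Accessibility was lower at each member start where a peak was found. Within 1 kb of a RefSeq start, 3 of the 10 genes had a peak, and the edgeR quasi-likelihood test on peak counts called all 3 lower, where it called 6.46% of all 38121 peaks and 11.1% of the 6411 peaks within 1 kb of any start lower. The CIT peak chr12:119876801-119877778 had 107, 95.4 and 96.8 TMM-scaled CPM, the library-scaled count, in DMSO and 61.7, 68.2 and 70.1 CPM in palbociclib (log2 -0.58, SE 0.058, edgeR adjusted p 7.24e-12). The BIRC5 peak chr17:78213906-78214718 had 49.5, 45.4 and 48.9 CPM in DMSO and 35.5, 34.3 and 36.6 CPM in palbociclib (log2 -0.43, SE 0.072, edgeR adjusted p 1.1e-05). The PRC1 peak chr15:90994163-90995076 had 130, 128 and 128 CPM in DMSO and 107, 110 and 110 CPM in palbociclib (log2 -0.24, SE 0.049, edgeR adjusted p 0.000389). It lies within 1 kb of the start of the uncharacterised gene LOC124903556 too. In all 3 peaks every palbociclib library was below every DMSO library, as in 14.2% of all peaks, and all 3 calls held in each of the 10 alternatives run on them.

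The 120 bases before the start of the 2 peak genes with a promoter sequence are shown, since they lie inside the peaks that fell. Each is on the strand of the gene, with CHR and CCAAT letters on either strand in capitals.
PRC1, chr15:90994536-90994655, minus strand: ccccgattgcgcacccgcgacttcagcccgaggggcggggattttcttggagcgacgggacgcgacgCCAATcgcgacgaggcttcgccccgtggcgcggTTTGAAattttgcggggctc
CIT, chr12:119877321-119877440, minus strand: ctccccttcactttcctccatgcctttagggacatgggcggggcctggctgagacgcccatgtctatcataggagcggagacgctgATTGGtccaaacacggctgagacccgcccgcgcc

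In PRC1 a CCAAT box 53 bases before the start preceded the CHR at 20 bases before it. In CIT the reverse strand of CCAAT stood 34 bases before the start and the nearest CHR 10 bases after it, outside the stretch shown.

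A further peak of RACGAP1, chr12:50024988-50025938, lies inside the gene 7502 bases from its outermost RefSeq start and holds the most upstream exon end that the splicing tables list for it. It went from 107 ± 3.25 to 78.1 ± 2.03 CPM (SD, n = 3; log2 -0.46, edgeR adjusted p 1.64e-09). At the other end of CIT the peak chr12:119686317-119686967, near the start of the uncharacterised gene LOC124903033, rose from 9.89 ± 0.723 to 15 ± 2.4 CPM (edgeR log2 change 0.6, adjusted p 0.000554), where 5.41% of all peaks were called higher. The closest peak of CDCA8, 1560 bases from its start and beside AIRIM, was not called (62.7 ± 4.47 and 57.6 ± 3.42 CPM, edgeR adjusted p 0.24). Neither were single peaks inside ANLN (edgeR adjusted p 0.37) and in the body of CIT (edgeR adjusted p 0.695). AURKB, INCENP, ECT2 and CEP55 had no peak in the table within 2 kb of a start or in the gene, and their accessibility was not analysed here.

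**Figure D5:**
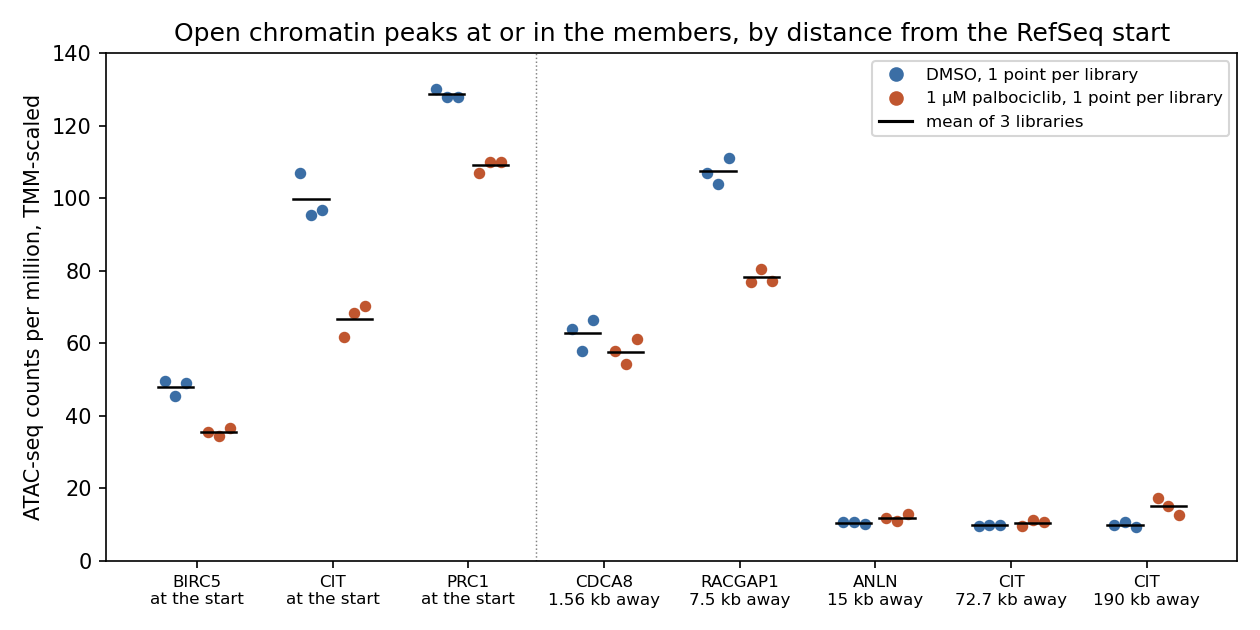
ATAC-seq CPM of the 8 peaks at or in the members, with 1 point per library and a line at the mean of 3, peaks at a start at the left and the others by distance from the RefSeq start. The peaks of BIRC5 (47.9 to 35.5), CIT (99.7 to 66.7) and PRC1 (129 to 109 CPM) and the inner peak of RACGAP1 (107 to 78.1 CPM) are lower in every palbociclib library.

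The RNA and accessibility changes differed in size. At CIT, BIRC5 and PRC1 the log2 change of the peak lay between -0.58 and -0.24 and that of the RNA between -3.41 and -2.83. PRC1 had a lower RNA change than CIT (-3.14 and -2.83) and the smaller change of the peak (-0.24 and -0.58). The assays came from separate libraries, and 3 genes allow no test of a relation between them.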

How the data were processed

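The members, partner lists and motifs were chosen with earlier results of these data known. The authors deposited 1 FPKM column for each RNA library. Log2 fold changes were copied from the DESeq2 table as deposited; its mean normalized count, a signal across the deposited libraries, was not used. The splicing tables hold read counts and inclusion levels (fractions) deposited by the authors with rMATS p-values and false discovery rates, per the file headers. ATAC values were counts per peak as deposited by the authors. The submitters' processing notes name Salmon 1.10.2, STAR 2.7.10b, DESeq2 1.44.0, Bowtie2 2.5.4-6, MACS3 3.0.3-0 and featureCounts, and the build GRCh38; the rMATS version and the strand setting are not given in the sources used here.

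RNA was fitted with limma 3.58.1 (intensity trend) on log2(FPKM + 1) for the 15869 genes whose mean FPKM reached 0.5. Splicing counts were fitted with the edgeR 4.0.16 quasi-likelihood test, with terms for library, inclusion, and inclusion by treatment. Events needed on average 20 reads in a library and 5% of reads in the rarer form, and adjustment was within event type. Each event was fitted in all 6 libraries. Peak counts were fitted with edgeR, TMM and no peak removed by its filter. All adjusted p-values are Benjamini-Hochberg over the whole table or event type, two-sided, threshold 0.05; all groups have 3 libraries. Gene positions, starts and promoter sequences are from RefSeq on GRCh38.p14, and peak coordinates are as deposited. Named were all members, at most 3 partners each way per list with the largest called change, the 5 genes most like the members, called events, the most-read tested event of each member, up to 5 events with the largest change among non-overlapping groups (mean of at least 50 reads), and peaks at starts; the partners without a call, the BIRC5 exons and other events named, and the inner peaks, were added after their values were seen. The fits were tested on simulated data. A list of leukocyte markers is not reported here. Intervals and floors cover counting error only. The labels do not say that equal replicate numbers mark pairs.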

Additional observations from a re-analysis of the deposited data

How the results depend on the processing

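The median log2 change of the members, -2.91 as reported, was -3.16 with a pseudocount of 0.1, -2.84 with quantile normalization and -2.81 with each library centred on its median, and lay between -2.94 and -2.88 when any 1 library was left out. Partner genes numbered 26 lower and 13 higher. Centring gave 21 higher, and over all genes the higher calls went from 3312 to 5729. Leaving out 1 library gave 21 to 25 lower and 9 to 12 higher partners. Quantile normalization turned the split of contractile ring calls from 45.5% to 66.7% higher, and that over all genes from 47.7% to 61.6%. Of the members' splicing events, 2 were called; 1 was with at least 10 reads in every library, 0 without a filter on the minor form, and 0 to 2 with 1 library left out. The INCENP exon had an edgeR adjusted p of 0.051 with at least 10 reads in every library. The DESeq2 Wald test called 0 of 58: it gave an adjusted p for only 20 of them and none for the INCENP and ECT2 exons, whose unadjusted p were 0.000249 and 1.14e-06 (6 of the 58 were under 0.05). Among uncalled events the log2 odds ratio changed sign when 1 library was left out for the PRC1 intron (-0.36 to 0.22 over all alternatives, with 0.06, 0 and 0.22 in those that reversed), the ANLN exon (-0.22 to 0.02), the CDCA8 exons (-0.16 to 0.13) and the RACGAP1 3′ splice site (-0.59 to 0.23). All 3 peaks at member starts stayed lower in every alternative run. With the stretch just before the start only, 6 of 8 genes held a CHR, against 7.87% of all windows.

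Same-numbered RNA libraries deviated together weakly at most (r 0.23, -0.005 and 0.148, against -0.255 to 0.102 between unlike numbers). Same-numbered ATAC libraries did so no more than unlike ones (r 0.005, 0.04 and -0.026, against -0.068 to 0.059). The labels name no pairs, so the numbers were not taken as pairs. With the replicate block the members' median was -2.91, partners numbered 25 lower and 14 higher, 2 events were called (edgeR adjusted p 0.000108 in ECT2 and 0.0224 in INCENP) and 3 peaks were lower. Depth limits the splicing results: in palbociclib the most-read tested AURKB event rested on 0, 1 and 3 inclusion reads.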
